A study of Homo sapiens with 6 samples.

Results

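The genes of MHC class I and class II antigen presentation were followed in WM164 cells, an established human melanoma line. The list of 35 genes was chosen by gene name (HLA genes, peptide processing and loading, immunoproteasome, transactivators and stress ligands), and all 35 were found among the 58870 genes of the count table. RNA was sequenced in 6 libraries. In 3 of them the cells expressed green fluorescent protein (GFP) as the control, and in the other 3 they expressed T-MGM, a construct that joins the bZIP factor MAFG and the melanocyte master regulator MITF through a flexible linker into a tethered dimer. Both sequences were delivered by lentivirus into the same parental line, from a constitutive promoter, so both groups carry an integrated vector. The cells were cultured alone, with no immune cells and no added interferon named in the sources used here. The labels do not say whether the 3 libraries of a group came from separate cultures, so p-values measure the spread between these libraries, which may be technical. The counts did not show the construct: MAFG had 2397 to 2535 normalized counts (reads scaled for library depth) in GFP and 2327 to 2396 in T-MGM and did not pass the test used below, and MITF was 1.06-fold higher in T-MGM. The methods describe cDNAs, and whether they were recoded is not given in the sources used here. GFP and T-MGM below therefore name libraries by their labels, and each direction rests on those labels.

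In the class I pathway, proteins in the cytosol are cut by the proteasome, and the TAP transporter moves the peptides into the endoplasmic reticulum. There they are trimmed and loaded onto a heavy chain paired with the light chain beta-2-microglobulin, and the complex travels to the cell surface for inspection by CD8+ T cells and natural killer cells. In the class II pathway, peptides from endosomes are loaded onto alpha and beta chains for CD4+ T cells. Class II is normally a property of professional antigen presenting cells, but melanoma cells can acquire it. Melanoma is also known for losing class I as a route of immune escape, and interferon gamma is the classical inducer of both pathways.

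Between the groups, HLA-B about doubled and CD74, the class II invariant chain, rose by a similar factor from a low level. The class I transactivator gene NLRC5 and the stress ligand gene MICA also rose, by less. These changes are from read counts. In the 4 fits on TPM (reads scaled for transcript length and depth), HLA-B passed in 4, MICA in 1, and CD74 and NLRC5 in 0. The light chain gene B2M, the transporter genes and the immunoproteasome genes did not rise with HLA-B, and the class II alpha and beta chain genes were at or near 0 in every library. In all, 5 of the 35 genes had at most 3 reads in each library, which was taken as the floor of detection, and 29 could be tested. Of these 29, 8 were higher and 6 lower in T-MGM at an adjusted p at or under 0.05 in DESeq2 (a negative binomial model of the read counts, Benjamini-Hochberg adjusted over all genes tested). The same rule called 19.2% of all 19135 tested genes higher and 19.2% lower. At that adjusted p, a change over 2-fold was seen for 2 of the 29, against 4.63% of all tested genes. The median log2 fold change was 0.016 over the 29 genes and -0.003 over all tested genes. With no overlap between GFP and T-MGM libraries in normalized counts, 8 of the 29 lay higher and 7 lower in T-MGM, against 23.4% and 23.4% of all tested genes.

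The bases upstream of HLA-B, HLA-C, B2M and CD74 are shown because these genes encode the class I heavy chains, their common light chain and the class II chaperone, on which the results below turn. They come from RefSeq on GRCh38.p14 and cover the 250 bases before the transcription start, 5′ to 3′ on the gene's own strand. HLA-B lies at chr6:31357180-31357429 on the minus strand, HLA-C at chr6:31272093-31272342 on the minus strand, B2M at chr15:44711267-44711516 on the plus strand and CD74 at chr5:150412911-150413160 on the minus strand. Capitals mark ATTGG, the Y box that binds NF-Y, TGACG, the core of the X2 box that binds CREB and ATF factors, and in B2M a stretch of 2 overlapping copies of the core of the interferon-stimulated response element (GAAA, any 2 bases, GAAA). Each motif was searched on both strands, so that a Y box on the other strand reads CCAAT. Only exact matches to these letters were marked. HLA-B and HLA-C had no exact match to the interferon element core, but variant forms were not searched, so an unmarked stretch does not mean that the element is absent.
HLA-B: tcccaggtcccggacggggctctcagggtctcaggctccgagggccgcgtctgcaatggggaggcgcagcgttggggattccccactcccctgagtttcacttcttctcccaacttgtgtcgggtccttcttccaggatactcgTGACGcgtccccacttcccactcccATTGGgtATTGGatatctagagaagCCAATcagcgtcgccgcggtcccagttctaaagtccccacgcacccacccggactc
HLA-C: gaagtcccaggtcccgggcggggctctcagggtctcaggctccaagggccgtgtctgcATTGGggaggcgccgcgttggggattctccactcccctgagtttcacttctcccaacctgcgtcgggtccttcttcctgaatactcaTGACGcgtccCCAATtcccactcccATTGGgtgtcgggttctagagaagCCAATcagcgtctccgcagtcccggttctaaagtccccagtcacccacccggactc
B2M: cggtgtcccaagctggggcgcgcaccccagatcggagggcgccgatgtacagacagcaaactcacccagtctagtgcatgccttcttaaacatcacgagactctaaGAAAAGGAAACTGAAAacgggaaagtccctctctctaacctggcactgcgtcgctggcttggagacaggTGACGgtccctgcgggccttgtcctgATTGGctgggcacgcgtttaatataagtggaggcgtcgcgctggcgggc
CD74: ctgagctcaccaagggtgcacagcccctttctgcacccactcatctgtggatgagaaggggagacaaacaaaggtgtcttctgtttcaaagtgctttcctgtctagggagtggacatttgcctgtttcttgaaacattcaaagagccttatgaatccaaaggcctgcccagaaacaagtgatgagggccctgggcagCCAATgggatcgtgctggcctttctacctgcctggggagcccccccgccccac
HLA-B has an X2 core 106 bases before the start and Y boxes at 81, 74 and 56 bases. HLA-C has the X2 core at 105 bases and Y boxes at 192, 95, 80 and 56 bases. B2M has the X2 core at 75 bases, a Y box at 49 bases and the interferon element cores at 144 and 138 bases. CD74 has a Y box at 53 bases and no X2 core in these letters. Over windows that also take in the 50 bases after the start, HLA-B and HLA-C were identical at 90.9% of aligned bases, against 59.1% for HLA-B and B2M and 49.7% for HLA-B and CD74. These are letters of the reference genome and not of the WM164 alleles, and their part in the changes given below was not tested.

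Over the members, 43 such windows were found, for 30 of the 35 genes. HLA-E, HLA-DRA, NLRC5, CIITA and PDIA3 had none. A Y box was present in 24 of the 43 windows, against 34.6% of all 35116 windows in the table, and an X2 core in 16, against 24.6%. The interferon element core was present in 12 of the 43, against 3.57% of all windows. Windows of a gene can overlap and share a site, as for CANX and RFX5. By gene, a Y box was found in 21 of the 30, an X2 core in 13 and the interferon element core in 12. Of the letters bound by the factors joined in T-MGM, the E-box CACGTG was found in 5 windows (7.26% of all windows), CATGTG in 4 (11.1%) and the small MAF site TGCTGAC, whose last letters can form part of an X2 core, in 2 (4.19%). By gene, they were found in 4, 3 and 2 of the 30. None of these 3 motifs was matched in the windows of HLA-B, HLA-C, B2M or CD74. The AP-1 motif was not searched, although the paper reports it as the most enriched where both factors bind. These matches describe letters in a window and do not show binding.

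HLA-B, a classical heavy chain that presents peptides to CD8+ T cells (chromosome 6, 31353872 to 31367067, GRCh38), had normalized read counts of 812, 886 and 866 with GFP against 1785, 1893 and 1733 with T-MGM. Normalized read counts are reads scaled for library depth by DESeq2's median-of-ratios factors. Every T-MGM library lay above every GFP library. The log2 fold change of T-MGM over GFP was 1.08 (SE 0.06, n = 3 per group), a fold of 2.11 with 95% limits of 1.95 and 2.28 (DESeq2 adjusted p = 2.62e-78). In a bulk sample, more cells that express a gene and more RNA in each cell cannot be told apart. HLA-B passed in all 17 alternative settings, where its log2 fold change ran from 0.89 to 1.11.

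HLA-C, the other classical heavy chain measured here, lay above HLA-B per transcript length, with 91.5 ± 3.47 (SD, n = 3) TPM in GFP against 13.2 ± 0.340 for HLA-B. TPM is scaled for transcript length and depth and allows levels to be compared between genes. Its normalized counts were 5935, 6375 and 6079 with GFP against 7215, 7130 and 7099 with T-MGM. The groups did not overlap, but the change was small, at 0.22 on the log2 scale (SE 0.03 and adjusted p = 3.03e-16 in DESeq2). When fold changes were corrected for the GC content and length of each gene, the value for HLA-C fell to 0.06 (adjusted p = 0.0415), and in TPM the means were 91.5 and 96.4. Only uniquely aligned reads were counted, and HLA genes are similar and polymorphic, so reads that could not be assigned to 1 HLA gene are missing from these counts. The TPM values were estimated separately with RSEM, which divides shared reads between genes, and there HLA-B went from 13.2 ± 0.340 to 25.3 ± 1.17 TPM.

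The non-classical heavy chain HLA-E, the ligand of the NKG2A receptor of natural killer cells, had normalized counts of 2289, 2433 and 2396 with GFP against 2510, 2765 and 2542 with T-MGM. The GFP libraries lay below the T-MGM libraries by a narrow margin, and the log2 fold change was 0.13 (SE 0.04 and adjusted p = 0.00562 in DESeq2). The call was lost without GFP replicate 1 (adjusted p = 0.0683) and without T-MGM replicate 2 (adjusted p = 0.101). It was also lost with the GC and length correction (0.05, adjusted p = 0.376) and with scaling by total counts (0.08, adjusted p = 0.138). HLA-F, a non-classical heavy chain, was low, with 77.9, 50.9 and 45.7 normalized counts with GFP against 81.2, 48.8 and 70.8 with T-MGM. These values overlapped, and the log2 fold change of 0.21 (SE 0.28) did not pass. HLA-G, the heavy chain of the placental trophoblast, had 0, 0 and 1 reads with GFP against 1, 0 and 0 with T-MGM, at the floor.

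B2M, the light chain shared by all class I heavy chains, was the most abundant of the 35 genes, with 357 ± 12.6 TPM in GFP. Its normalized counts were 8716, 9201 and 9095 with GFP against 8654, 8257 and 8247 with T-MGM. The T-MGM libraries lay just below the GFP libraries. The log2 fold change was -0.10 (SE 0.02 and adjusted p = 0.000138 in DESeq2). B2M has a GC content of 38.9%, and with the correction for GC content and length the value turned to 0.03 and did not pass (adjusted p = 0.426). In no setting run did B2M pass as higher.

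**Figure D1:**
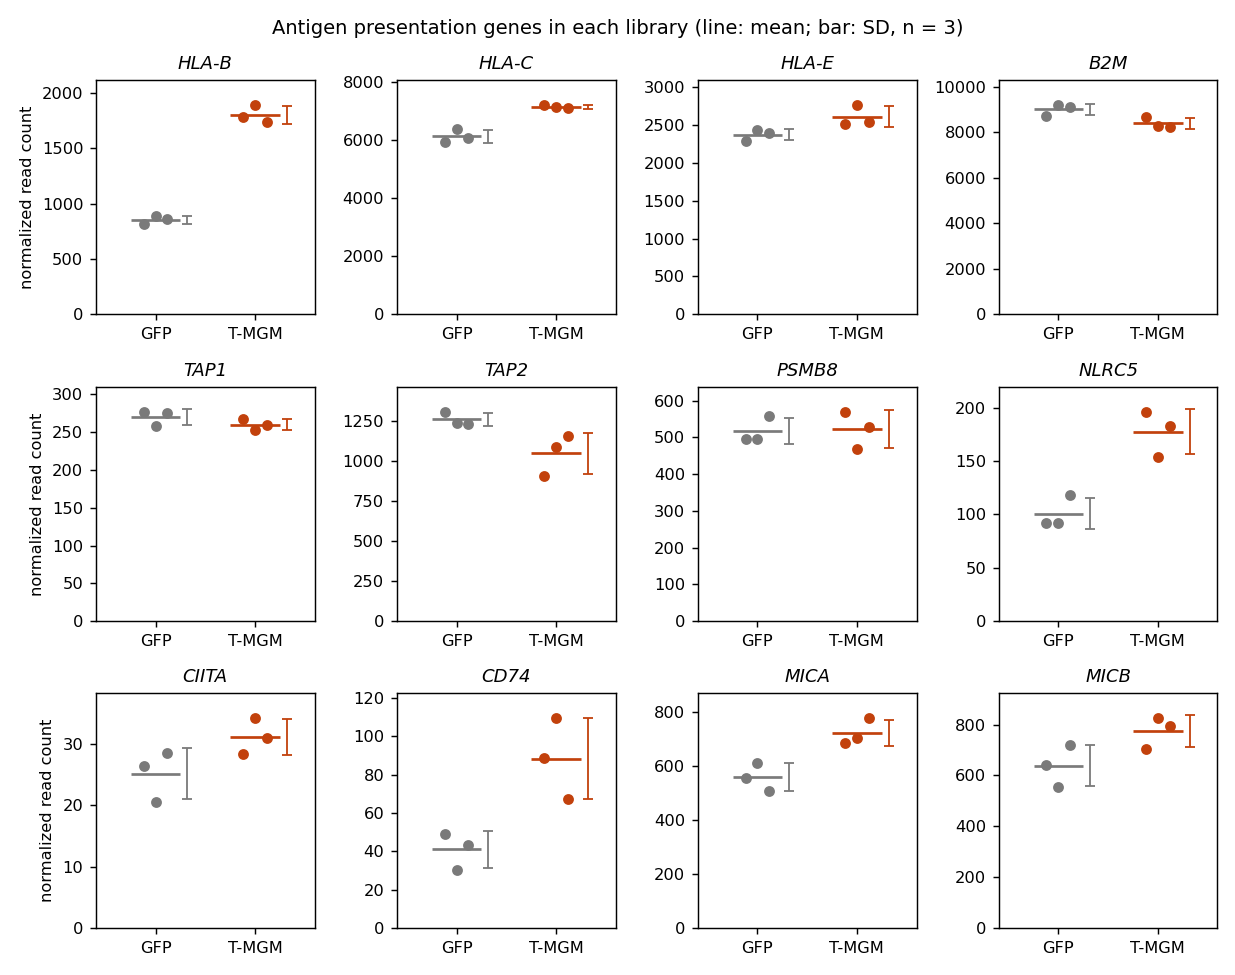
Normalized read counts of 12 antigen presentation genes in the 3 GFP libraries (grey) and the 3 T-MGM libraries (orange); points are libraries, horizontal lines are means and bars are SD, each axis starting at 0. HLA-B is separated by a wide gap, NLRC5 and CD74 do not overlap but lie closer, B2M and TAP2 lie lower in T-MGM, and TAP1 and PSMB8 overlap.

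Ratios of raw counts within a library do not depend on how libraries are scaled to each other. The ratio of HLA-B to HLA-C reads was 0.137, 0.139 and 0.142 with GFP against 0.247, 0.265 and 0.244 with T-MGM. HLA-B to B2M went from a mean of 0.0949 to 0.215, and HLA-C to B2M from 0.681 to 0.853. Each of these 3 ratios was separated between the groups. For HLA-C and B2M, the GC and length correction brought the changes close to each other, at 0.06 and 0.03 on the log2 scale. A 2-sided exact permutation test gave p = 0.1 for each, the smallest value that 3 against 3 libraries allow, and 0.143 after adjustment over the 10 ratios tested.

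The genes that supply peptides to class I were mixed. TAP1, one subunit of the peptide transporter, had normalized counts of 277, 258 and 275 with GFP against 267, 253 and 260 with T-MGM. The groups overlapped, with a log2 fold change of -0.05 (95% limits -0.29 and 0.18). TAP2, the other subunit, had 1307, 1238 and 1232 with GFP against 904, 1085 and 1154 with T-MGM. TAP2 fell, by 0.26 on the log2 scale (SE 0.07 and adjusted p = 0.000899 in DESeq2), and T-MGM replicate 1 lay well below the other two. Without that library TAP2 fell by 0.17 (adjusted p = 0.0327). The call was lost without any one of the GFP libraries or T-MGM replicate 2 (adjusted p from 0.0724 to 0.167). TAP2 passed in 9 of 13 alternatives on counts and in 0 of 4 on TPM. Its TPM overlapped, at 12.1, 10.8 and 10.4 with GFP against 5.67, 11.9 and 11.1 with T-MGM. A gene without a symbol overlaps TAP2 on the same strand, with mean normalized counts of 23.7 in GFP and 41.2 in T-MGM. Its part in the TAP2 value was not tested.

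TAPBP encodes tapasin, which holds the empty heavy chain at the transporter. Its normalized counts were 5232, 5043 and 4717 with GFP against 5360, 5210 and 5341 with T-MGM. The groups overlapped, and the small difference passed at 0.09 on the log2 scale (SE 0.03 and adjusted p = 0.0184 in DESeq2). With the GC and length correction it was -0.01 and did not pass. It passed in 7 of the 13 alternatives on counts, and was 0.05 without GFP replicate 3 (adjusted p = 0.262) and 0.03 with scaling by total counts (adjusted p = 0.470). Without T-MGM replicate 1 or 3 it was 0.08 and did not pass (adjusted p = 0.0861 and 0.0758). The tapasin-related gene TAPBPL had a log2 fold change of 0.33 (SE 0.17) and did not pass. The lectin chaperone gene CANX, which holds newly made heavy chains, was abundant at 269 ± 2.64 TPM in GFP and fell by 0.13 on the log2 scale (SE 0.01 and adjusted p = 1.68e-20 in DESeq2). CANX has a GC content of 40.8%, and with the GC and length correction its value was -0.02 (adjusted p = 0.377). PDIA3, the disulfide isomerase of the loading complex, had a log2 fold change of 0.02 (SE 0.01) and did not pass. It passed as higher with the GC and length correction (0.05, adjusted p = 0.00495) and as lower on log2(TPM + 1) with a minimum of 0.5 TPM (-0.11, adjusted p = 0.0202), so its direction is not settled by these data.

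The aminopeptidases ERAP1 and ERAP2 trim peptides in the endoplasmic reticulum. ERAP1 had a log2 fold change of 0.13 (SE 0.06 and adjusted p = 0.0579 in DESeq2), just short of the threshold, although its groups did not overlap. The non-call depended on the setting: ERAP1 passed as higher with the GC and length correction (0.26, adjusted p = 5.47e-05), in edgeR (adjusted p = 0.0452) and with TMM factors (adjusted p = 0.0374). ERAP2 stood at -0.04 (SE 0.19). ERAP1 shares its locus with CAST on the other strand, which went from 4858 to 5827 mean normalized counts. Its part in the ERAP1 value was not tested.

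PSMB8, PSMB9 and PSMB10 are the inducible catalytic subunits that replace PSMB5, PSMB6 and PSMB7 in the immunoproteasome. PSMB8 had normalized counts of 495, 497 and 557 with GFP against 570, 467 and 528 with T-MGM. PSMB9 had 201, 204 and 198 with GFP against 155, 201 and 184 with T-MGM. Both overlapped between the groups. The log2 fold changes were 0.02 (95% limits -0.17 and 0.20) for PSMB8, -0.16 (-0.45 and 0.13) for PSMB9 and 0.15 (-0.09 and 0.39) for PSMB10, and none passed. A change of the size seen for HLA-B lay outside the limits of all 3. The read ratio of PSMB8 to its constitutive counterpart PSMB5 was 0.114 ± 0.00862 in GFP and 0.119 ± 0.00999 in T-MGM (SD, n = 3; exact permutation p = 0.6), and PSMB10 to PSMB7 was 0.0391 ± 0.00346 and 0.0424 ± 0.00501 (exact permutation p = 0.4). PSMB9 to PSMB6 did not overlap, at 0.0419 ± 0.00174 and 0.0348 ± 0.00293 (exact permutation p = 0.1).

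**Figure D2:**
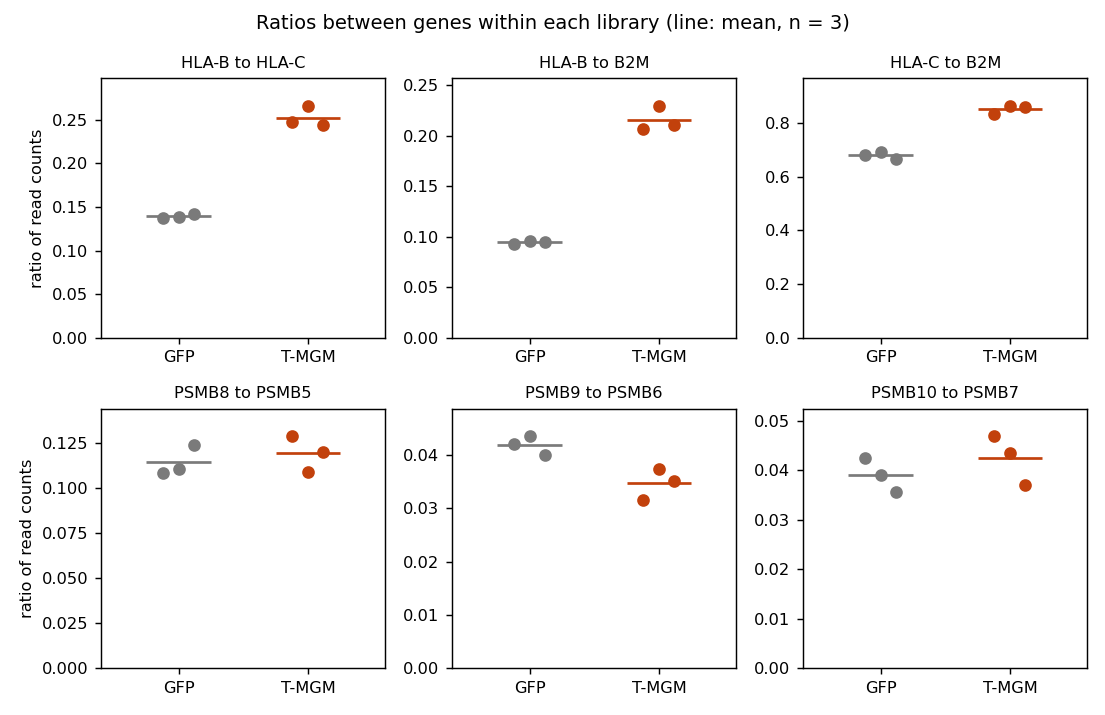
Ratios of read counts between 2 genes within each library, for the GFP (grey) and T-MGM (orange) libraries; points are libraries, lines are means of 3, and axes start at 0. The heavy chain ratios in the upper row separate the groups, while PSMB8 to PSMB5 and PSMB10 to PSMB7 overlap.

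The PA28 activators open the proteasome and change the peptides it releases. PSME1 and PSME2, which form the cytosolic interferon-inducible cap, diverged. PSME1 was at 0.00 on the log2 scale (95% limits -0.08 and 0.08), and PSME2 fell by 0.20 (SE 0.04 and adjusted p = 1.88e-05 in DESeq2). PSME3, the nuclear activator, fell by 0.15 (SE 0.02 and adjusted p = 7.95e-09 in DESeq2). PSME2 and PSME3 passed in all 17 alternative settings. On the other strand, RNF31 overlaps PSME2, with mean normalized counts of 553 in GFP and 620 in T-MGM. A gene without a symbol does so as well, with 1118 and 1081. Their part in the PSME2 value was not tested. The neighbouring autophagy gene BECN1, which overlaps PSME3 on the other strand, had a log2 fold change of -0.26, and its part in the PSME3 value was not tested.

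The transactivators bind no DNA by themselves (NLRC5 and CIITA) or sit on the X box (RFX5), and act through an assembly of RFX, CREB and NF-Y factors. NLRC5, the regulator of class I genes, had normalized counts of 92.3, 92.0 and 118 with GFP against 196, 154 and 182 with T-MGM. All T-MGM libraries lay above all GFP libraries. The log2 fold change was 0.82 (SE 0.18 and adjusted p = 2.12e-05 in DESeq2), a fold of 1.77 with 95% limits of 1.39 and 2.25. It passed in all 13 alternatives run on counts and in 0 of the 4 run on TPM, where the values ran from 0.17 to 0.26. The TPM of NLRC5 was 0.92, 1.68 and 1.20 with GFP against 1.84, 0.91 and 1.96 with T-MGM, so the groups overlapped on that scale.

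CIITA, the class II counterpart of NLRC5, was low, with 26.4, 20.6 and 28.6 normalized counts with GFP against 28.3, 34.1 and 31.0 with T-MGM. The groups overlapped narrowly, and the log2 fold change of 0.31 (SE 0.38) did not pass. CIITA overlaps DEXI on the other strand, which had mean normalized counts of 1039 and 1109, so a share of its few reads cannot be assigned with certainty. RFX5 fell by 0.21 on the log2 scale (SE 0.06 and adjusted p = 0.00511 in DESeq2), from 1021 ± 68.5 to 885 ± 22.6 normalized counts (SD, n = 3), and lost the call without GFP replicate 3 (adjusted p = 0.0801). The 219 expressed genes within 10 Mb of RFX5 on chromosome 1 had a median log2 fold change of -0.18, close to that of RFX5 itself.

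**Figure D3:**
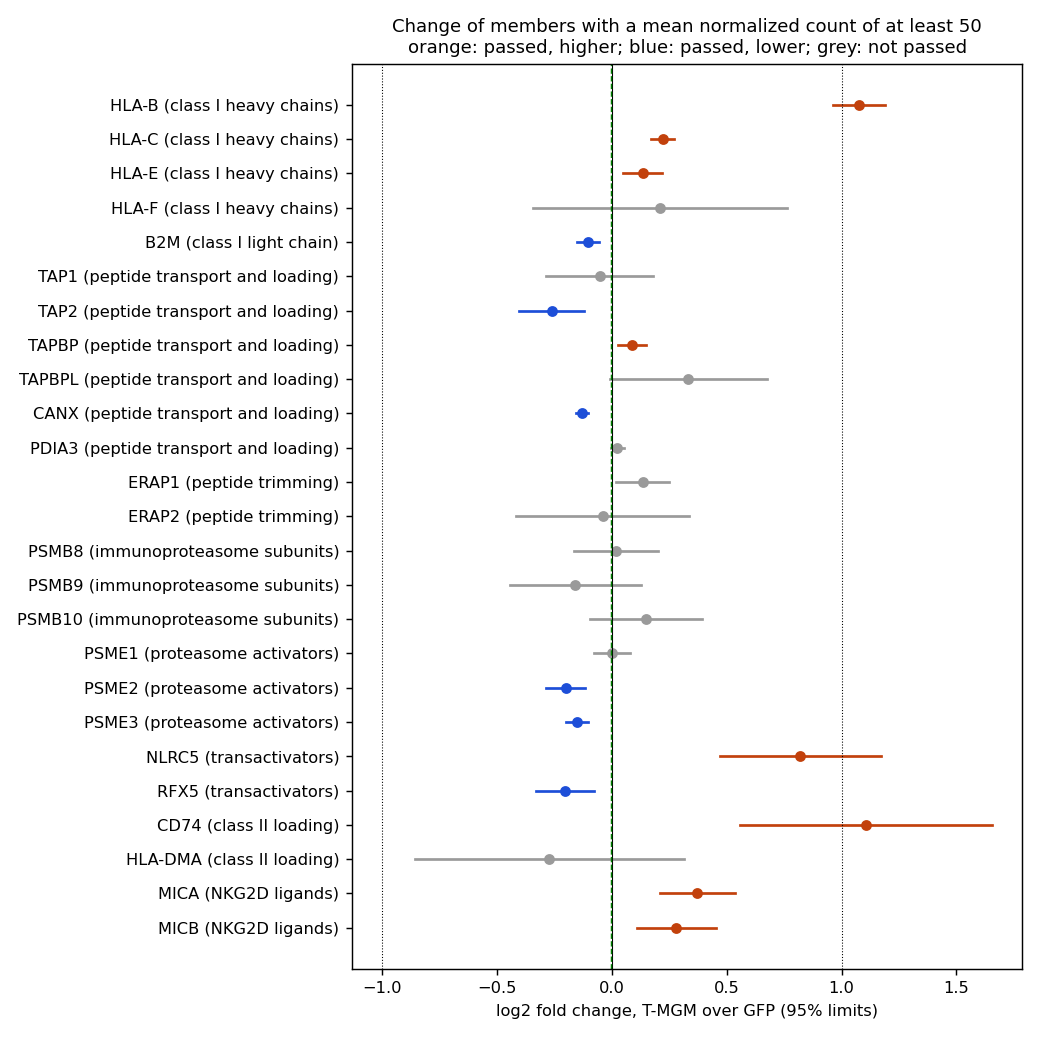
Log2 fold change of T-MGM over GFP with 95% limits (DESeq2) for each member whose normalized counts averaged 50 or more, in order of role; the dashed line is the median of all tested genes and the dotted lines are 2-fold. HLA-B and CD74 reach past 2-fold and NLRC5 lies below it, while the class I supply genes lie between -0.26 and 0.33.

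The class II alpha and beta chains, which form the DR, DP and DQ peptide receptors, were barely detected. HLA-DRA had 0, 0 and 1 reads in GFP and 0 in each T-MGM library, and HLA-DRB1 had 0 reads in all 6 libraries. HLA-DQA1 had 1, 0 and 0 reads in GFP and 0 in each T-MGM library. HLA-DPA1 held the most reads, 13, 12 and 4 with GFP against 5, 5 and 14 with T-MGM, with no separation of the groups. HLA-DQB1 had 4, 3 and 3 reads with GFP against 1, 3 and 0 with T-MGM (DESeq2 adjusted p = 0.433), and HLA-DPB1 had 1, 3 and 1 and 0, 3 and 5. Summed over these 6 genes, a library held between 6 and 19 reads in T-MGM and between 9 and 19 in GFP, where HLA-B alone held 677 to 818 reads with GFP against 1957, 1940 and 2349 with T-MGM. The floor of 3 reads equals 0.0506 to 0.0856 CPM (reads scaled to library depth) over the libraries. It is a set rule, and a gene at or under it in every library got no fold change, although its single reads are listed here.

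CD74, the invariant chain that guards the class II groove and guides it to endosomes, was the exception among class II genes. Its normalized counts were 49.2, 30.3 and 43.4 with GFP against 88.5, 109 and 67.2 with T-MGM. The lowest T-MGM library lay above the highest GFP library. The log2 fold change was 1.11 (SE 0.28 and adjusted p = 0.000321 in DESeq2), a fold of 2.15 with 95% limits of 1.47 and 3.15. The counts were low and the limits wide, and without GFP replicate 2 or T-MGM replicate 2 the value was 0.93, below 2-fold, still past the threshold. It passed in 13 of 13 alternatives on counts and in 0 of 4 on TPM, where the levels were 0.750 ± 0.320 in GFP and 1.42 ± 0.440 in T-MGM (SD, n = 3).

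The chaperones HLA-DMA and HLA-DMB, which exchange peptides on class II, did not follow CD74. HLA-DMA had 56.4, 61.7 and 58.3 normalized counts with GFP against 54.7, 62.4 and 30.3 with T-MGM, a log2 fold change of -0.27 (SE 0.30). It overlaps BRD2 on the other strand, which had mean normalized counts of 10103 and 10761. HLA-DMB had 6, 14 and 10 reads with GFP against 2, 13 and 1 with T-MGM, and HLA-DOA, the modulator of HLA-DM, had 0 in all 6. None of these passed.

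**Figure D4:**
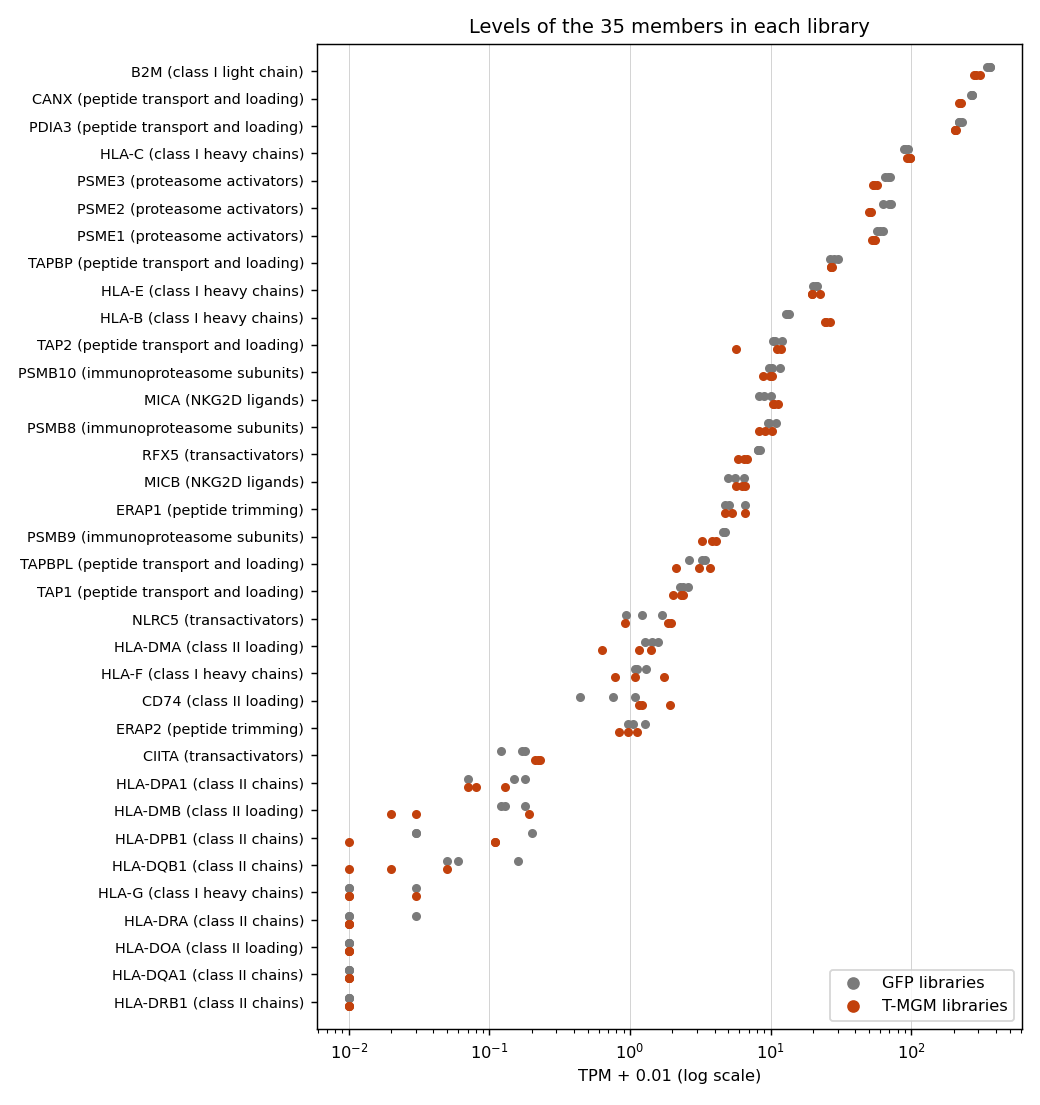
TPM of each of the 35 genes in every GFP (grey) and T-MGM (orange) library, on a log axis after adding 0.01, ordered by mean level. B2M, CANX and PDIA3 are highest, HLA-C lies above HLA-B in every library, and the class II chains lie at or near the lower end of the axis.

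MICA and MICB are stress-induced surface ligands of the NKG2D receptor on natural killer and T cells. MICA had normalized counts of 555, 610 and 508 with GFP against 684, 704 and 775 with T-MGM. The groups were separated, with a log2 fold change of 0.37 (SE 0.08 and adjusted p = 4.62e-05 in DESeq2). MICA passed in 13 of 13 alternatives on counts and in 1 of 4 on TPM, the rescaled one. MICB had 640, 557 and 720 with GFP against 705, 824 and 796 with T-MGM, which overlapped by 1 library on each side. Its log2 fold change of 0.28 (SE 0.09) passed (DESeq2 adjusted p = 0.00489), but not without GFP replicate 2 (adjusted p = 0.105) or T-MGM replicate 2 (adjusted p = 0.0570). MICB passed in 11 of 13 alternatives on counts and in 0 of 4 on TPM. The ratio of MICA to MICB reads was 0.890 ± 0.195 in GFP and 0.933 ± 0.0677 in T-MGM (exact permutation p = 0.8).

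Among the heavy chains ordered by TPM, HLA-C was at the top in both groups. On this scale HLA-E and HLA-B exchanged places. In normalized counts of uniquely aligned reads, which are not scaled for length, HLA-E lay above HLA-B in every library. HLA-E lay above HLA-B in GFP, at 20.8 ± 0.718 against 13.2 ± 0.340 TPM, and below it in T-MGM, at 20.6 ± 1.56 against 25.3 ± 1.17 TPM (SD, n = 3). HLA-F, at 1.16 TPM in GFP and 1.19 TPM in T-MGM, and HLA-G, at the floor, followed in both groups.

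Another 47 genes of the same pathways were taken from lists of related roles, of which 37 could be tested. In T-MGM 14 were higher and 9 lower, against the same 19.2% of all tested genes in each direction, and 0 of the 37 changed over 2-fold. Their median log2 fold change was 0.091. Among the endosomal proteases and the reductase that prepare class II peptides, 4 rose and 1 fell of 5 tested. The protease gene CTSL fell by 0.83 on the log2 scale, whereas the asparaginyl protease gene LGMN rose by 0.59 and the cathepsin gene CTSB by 0.14.

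Of the genes of interferon gamma signalling, 4 of 12 tested were higher and 4 lower. JAK2, a kinase of the interferon gamma receptor, fell by 0.51 on the log2 scale, and STAT3 rose by 0.21. IRF1, an interferon-induced factor that acts on class I promoters, had a log2 fold change of 0.07 (SE 0.10) and did not pass. Genes of the NF-Y, RFX and CREB assembly moved in both directions, with 2 of 6 higher and 3 lower. NFYC rose by 0.26 and RFXANK by 0.25, and NFYA fell by 0.15.

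Among the other loading and quality control factors, 2 of 5 tested were higher and 1 lower. Calreticulin (CALR), the soluble partner of the loading complex, rose by 0.20 on the log2 scale, the glucosyltransferase gene UGGT1 fell by 0.14 and the translocon gene SEC61A1 rose by 0.10. Of the constitutive catalytic subunits, PSMB6 rose by 0.11, while PSMB5 stood at -0.05 and PSMB7 at 0.04. The other NKG2D ligand genes had 1 of 3 tested higher, ULBP3, at 0.33 (SE 0.09 and adjusted p = 0.00191 in DESeq2), with ULBP2 at 0.20 and RAET1G at -0.86, which did not pass. Of the class I-like genes, MR1 stood at -0.29 and HFE at 0.22, and neither passed. The remaining class II genes had 1 tested, HLA-DOB, at -0.73 (SE 0.64), which did not pass.

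On chromosome 6 lie 21 of the 35 genes. The 248 expressed genes within 10 Mb of that cluster (normalized counts averaging 50 or more) had a median log2 fold change of 0.12. Over all such genes it was -0.01. With the GC and length correction the median of the 248 was 0.06. Of the 248, 108 were called higher and 24 lower. The share called among all genes at that level was not counted. Over all 19135 tested genes, weaker ones included, it was 19.2% in each direction. Of the members on chromosome 6 that passed, HLA-C, HLA-E and TAPBP had changes of the order of these medians. HLA-B, MICA and MICB had larger ones, and TAP2 fell by 0.26. Around B2M, 115 genes had a median of -0.07, around NLRC5 72 genes had 0.08 and around CD74 109 genes had 0.07. The part of the surrounding region in the members' values was not tested.

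**Figure D5:**
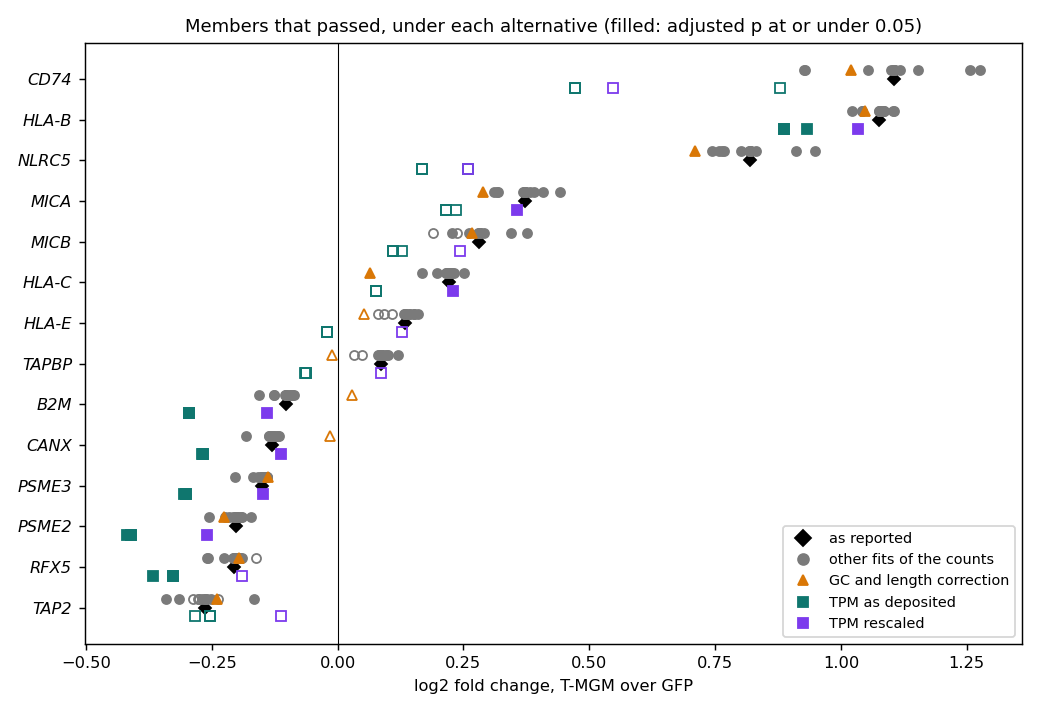
Log2 fold change of the 14 members that passed, as reported (black diamonds) and under each alternative setting; filled symbols have an adjusted p at or under 0.05. HLA-B is filled throughout, NLRC5 and CD74 are open in each fit on TPM, and B2M turns to 0.03 under the GC and length correction.

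Markers of other cells were checked beside these values. The melanocytic genes MITF, SOX10, PMEL, MLANA, TYR and DCT were expressed in every library, with a summed level of 964 to 977 TPM in GFP and 831 to 865 TPM in T-MGM. Of these 6 genes, 3 were called higher (MITF, SOX10 and PMEL) and 3 lower (MLANA, TYR and DCT). Of 12 genes of white blood cells and professional antigen presenting cells, 7 were at the floor, PTPRC, MS4A1 and CD3E among them. The summed level of the 12 was 13.5 to 15.3 TPM in GFP and 14.4 to 18.5 TPM in T-MGM. CD68 and ITGAX rose by 0.45 and 0.35 on the log2 scale and LYZ fell by 1.32. PTPRC, a pan-leukocyte marker, had at most 2 reads in any library. The source of the CD68, ITGAX, LYZ and CD74 reads was not tested.

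Library totals were 35057239 to 38738065 reads in GFP and 44577774 to 59250663 in T-MGM, and the deeper T-MGM libraries had fewer genes with a read, 22120 to 22601 against 23447 to 24115. A gene on the other strand overlaps 24 of the 35 genes, and 2 library kits are named, one by the labels without strand and one by the methods with strand. The genes annotated over HLA-B had 0 reads, and no gene overlaps CD74, HLA-C, HLA-E or B2M.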

How the data were processed

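RNA from 3 GFP and 3 T-MGM libraries was analysed. The authors trimmed reads with cutadapt 1.8.1, used STAR 2.7.7a for alignment to GRCh38, and featureCounts for the reads that aligned once. The deposited counts are whole and not normalized. The authors also deposited TPM values, estimated with RSEM 1.3.0. The annotation release was not given in the sources used here. Gene positions, GC content and lengths came from GENCODE release 44.

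Counts were fitted with DESeq2 1.42.0 in R 4.3.3, as in the study's methods, with the group as the only term, median-of-ratios size factors and a 2-sided Wald test without shrinkage, over the whole table. Adjusted p is Benjamini-Hochberg, with a threshold of 0.05. A gene with at most 3 reads in each library was at the floor and got no fold change. HLA-DPB1, above the floor, was left untested by independent filtering. The DESeq2, edgeR and limma fits were tested on simulated counts, with changes placed only in well-counted genes. Changes in genes with few reads, the deposited TPM and the GC and length correction were not covered. Alternatives were edgeR 4.0.16 (quasi-likelihood), TMM and total-count scaling, filters of 10 counts in 3 libraries or none, a replicate block, leaving out each library, limma 3.58.1 on log2(TPM + 1) or log2(TPM + 0.1), and a lowess correction for GC content and length. A fit on rescaled TPM was added after seeing the data.

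The members and lists were chosen with earlier results of these data known. All 35 members are accounted for, and values in each library are given for HLA-B, HLA-C, HLA-E, HLA-F, HLA-G, B2M, TAP1, TAP2, TAPBP, PSMB8, PSMB9, NLRC5, CIITA, CD74, HLA-DRA, MICA, MICB and any other member with normalized counts averaging 10 or more that passed with an absolute log2 fold change of at least 0.3. Of each related list, the counts in each direction and the 3 members with the smallest adjusted p are named, except where a gene is not reported here. IRF1, CAST, BECN1, RNF31, DEXI and BRD2 and the reads of the other class II members were added, after their values were seen.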

Additional observations from a re-analysis of the deposited data

How the results depend on the processing

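Of 35 genes, 8 higher and 6 lower were called. On TPM as deposited, whose median gene moved by -0.13 to -0.15 on the log2 scale, 1 was called higher with either pseudocount or no minimum, 8 lower (5 with no minimum) and 0 over 2-fold; related genes passing went from 23 to 14, and to 13 with no minimum. On rescaled TPM, added after seeing the data, 3 were higher, 4 lower, 1 over 2-fold and 13 related genes passed. Leaving out each library in turn gave 7 higher in each case, 4 to 6 lower, 1 to 2 over 2-fold (1 without GFP replicate 2) and 21 to 22 related genes. The other settings on counts gave 6 to 9 higher, 4 to 6 lower and 2 over 2-fold. Among the called genes and PDIA3, values that changed sign were HLA-E on TPM (-0.02033, -0.0213 and -0.02033), TAPBP on TPM (-0.06332, -0.06532 and -0.06332) and with the GC and length correction (-0.01054), PDIA3 on TPM (-0.1121 and -0.1126; -0.1121 with no minimum) and with total counts (-0.03002), and B2M with the GC and length correction (0.02796); the cause was not tested. Of the genes not called, TAP1, TAPBPL, ERAP2, HLA-F, PSMB8, PSMB10 and PSME1 also changed sign in at least 1 setting, and ERAP1, PDIA3, TAPBPL, PSMB9, PSME1 and HLA-DMB passed in at least 1. Same-numbered libraries did not deviate together (r from -0.06 to 0.03), so numbers were not taken as pairs. With the replicate block 7 genes were higher and 6 lower; TAPBP (0.09, adjusted p = 0.0643) lost its call, and no other member with a value did. Depth limits the class II chains, CIITA and HLA-F, where the 95% limits are wide.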
